A study of Rattus norvegicus with 12 samples.

Results

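The insulin and insulin-like growth factor (IGF) pathway was followed through 10 genes on rat arrays of F11 cells: Irs1 and Irs2, Insr, Igf1r and Igf2r, Igfbp2, Igfbp4 and Igfbp5, and Foxo1 and Foxo3. They were taken from the array's gene name column, with older names such as Foxo1a allowed. The array carried 15 probes of these genes among 41012 distinct non-control probes. Of the 15, 11 probes of 7 genes were bright enough to test, among 20418 probes of 17632 genes tested in all. Cells had spent 3 h in medium with 0.5% serum and were then given 10 µM forskolin, which activates adenylyl cyclase and raises cyclic AMP, for 2, 4, 24 or 48 h. Each time point had 3 samples, 12 in all. The common reference on every array was F11 RNA after the same low-serum period without forskolin. No unstimulated cells of the later times were analysed here, so hours in culture and hours in forskolin cannot be told apart. F11 is a hybrid of rat dorsal root ganglion neurons and mouse neuroblastoma cells, and how mouse transcripts bound these rat probes was not tested. The labels do not say that the 3 samples of a time point were separate cultures, so the p-values rest on the spread among these arrays and may reflect technical variation only.

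Insulin and IGF1 bind related receptor tyrosine kinases, the products of Insr and Igf1r, which phosphorylate the docking proteins IRS1 and IRS2. These recruit PI 3-kinase and so activate AKT, and AKT phosphorylates FOXO transcription factors and keeps them out of the nucleus. IGF-binding proteins hold IGFs in the extracellular fluid, and IGF2R, which has no kinase domain, carries IGF2 and mannose 6-phosphate proteins to lysosomes. In sensory neurons this pathway is known for its role in survival and neurite growth, and Irs2 is known as a gene that both cyclic AMP signalling and FOXO factors can raise in liver.

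Changes are given as the log2 ratio of the forskolin channel over the reference channel, so a value above 0 is higher in forskolin. A change was called at a limma adjusted p under 0.05, adjusted over all probes tested. Forskolin RNA was always labelled with Cy3 and the reference with Cy5, so a probe's dye effect remains in its ratio to the reference but drops out of differences between times. Each replicate number filled 1 slide, with the 4 time points at positions 1, 2, 3 and 4 in order of time, so position on the slide and time cannot be told apart. Centring each array on the median of all its spots, in place of loess, shifted the median of the tested probes, in order of time, to -0.55, -0.56, -0.43 and -0.45. Under that centring 1.78% of the 2 h calls and 2.51% of the 4 h calls were higher, against 39.1% and 42.9% with loess. Values relative to the median of the tested probes are therefore given for some members and genes. All 4 comparisons with the reference share its RNA, which counts as 1 control sample.

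The probes are 60 bases long, and several genes are read by 1 probe only. The sequences shown are those of the Irs2 and Igfbp4 probes that were dimmer than the brightest probe of the gene, since probes of these genes gave unlike values, and of the single tested probes of Igf1r, Foxo1 and Foxo3. Each is written as deposited, and its position is on build rn3 as the files give it.
Irs2 A_44_P400393: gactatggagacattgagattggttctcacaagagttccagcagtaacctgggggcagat
Irs2 A_44_P503503: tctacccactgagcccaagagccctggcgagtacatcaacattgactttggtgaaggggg
Irs2 A_44_P257518: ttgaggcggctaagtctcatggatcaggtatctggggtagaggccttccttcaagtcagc
Igfbp4 A_44_P515317: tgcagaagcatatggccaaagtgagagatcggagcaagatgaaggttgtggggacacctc
Igf1r A_44_P474037: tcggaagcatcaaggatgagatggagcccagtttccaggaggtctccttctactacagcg
Foxo1 A_43_P15648: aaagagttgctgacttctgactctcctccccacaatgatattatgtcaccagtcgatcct
Foxo3 A_43_P16998: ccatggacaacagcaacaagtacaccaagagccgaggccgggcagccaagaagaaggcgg
The first Irs2 probe lies at chr16:83367721-83367780, the second at chr16:83368548-83368607 and the third at chr16:83369128-83369187, all on the plus strand and within 1407 bases from first start to last. The brightest Irs2 probe, A_44_P684795, lies at chr16:83389667-83389726, and its start is 20539 bases from that of the nearest other Irs2 probe. The files tie it to another transcript record than the other Irs2 probes. The dimmer Igfbp4 probe lies at chr10:87843934-87843993 and the brightest, A_43_P16767, at chr10:87848583-87848642, their starts 4649 bases apart. The Igf1r probe is at chr1:123067493-123067552, that of Foxo1 at chr2:141151703-141151762 and that of Foxo3 at chr20:46208044-46208103. Exons and UTRs were not assigned, as no annotation of rn3 was used here.

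The probes of 3 of the 10 genes could not be tested, and neither could 1 of the 2 Igfbp5 probes. The Irs1 probe, for the docking protein best known from muscle and fat, was spotted 10 times and was well above background in neither channel on any of the 12 arrays. The Insr probe, for the insulin receptor, was well above background on 1 of 12 arrays in the reference channel and in the forskolin channel on none. The Igfbp2 probe, for an IGF-binding protein of brain and serum, and the second Igfbp5 probe were above background on none. Such probes give no direction. Their mean log2 ratios at single time points lay between -0.14 and 0.047, a range that describes background.

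Of the 7 genes that could be tested, each read by its brightest probe, Igfbp4, Igf2r and Irs2 changed between successive times with both channels well above background. Igfbp4, a binding protein that holds IGFs away from the receptor, was level with the reference at 2 and 4 h and higher at 24 and 48 h. Igf2r was lower at 4 h and higher at 48 h, and Irs2 was lower at 4 h than at 2 h and less so at 24 and 48 h. These are distances from the reference with loess, and those of all 3 genes moved with the centring. Igfbp5 is among the 7 only through its forskolin channel, in which it is high, so its count as higher was partly fixed by the filter. Foxo3 is among them only through its reference channel. At 2 h, 1 of the 7 genes was called higher and 1 lower, where 28.3% of all genes were called. At 4 h the counts were 2 higher and 3 lower, against 49.8% of all genes. At 24 h, 3 were higher and 2 lower, against 53.4%, and at 48 h 4 were higher and 2 lower, against 57.4%. These shares do not set the members apart. In order of time, the median of the 7 genes was -0.0035, 0.022, 0.11 and 0.23, beside -0.025, -0.035, -0.025 and -0.019 for all genes.

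**Figure D1:**
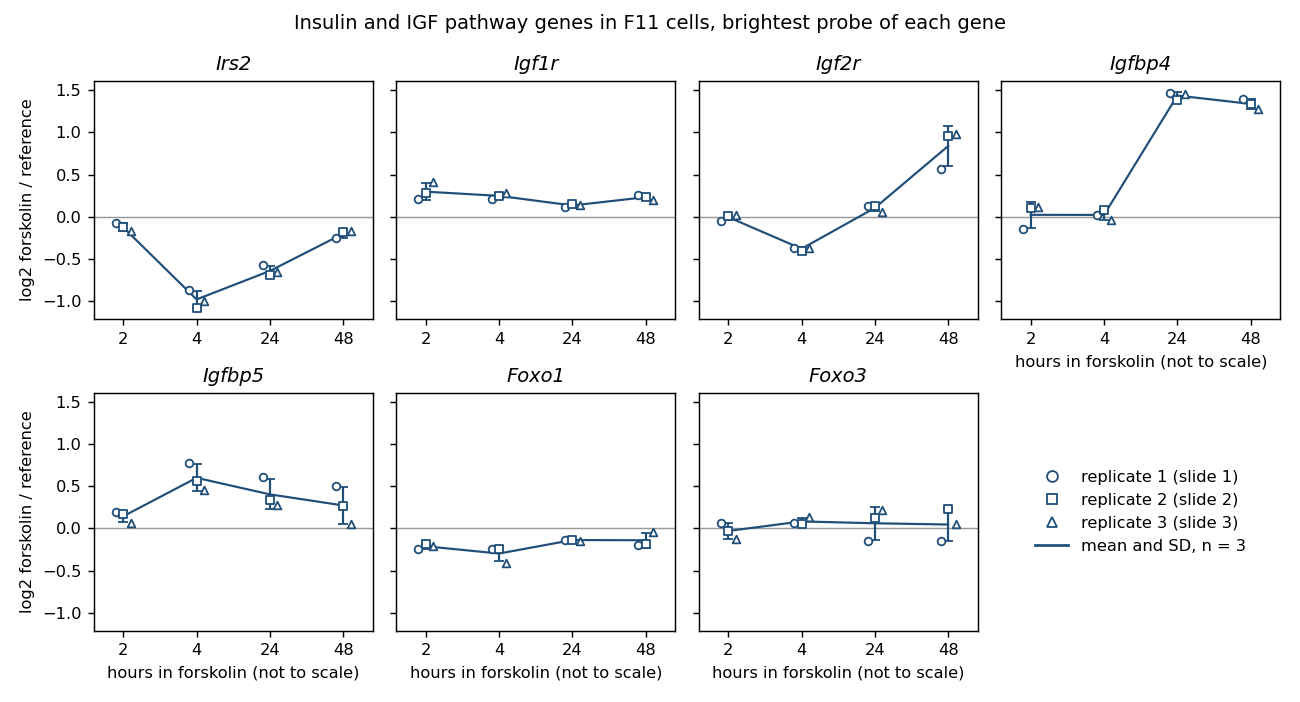
Log2 ratio of forskolin over reference (vertical axis) at 2, 4, 24 and 48 h (horizontal axis, not to scale) for the brightest probe of each of the 7 testable genes. Points are single arrays with a symbol for each replicate number, lines join the means and bars are the SD of 3 arrays; Igfbp4 steps up between 4 and 24 h to a mean of 1.44, Irs2 dips to -0.98 at 4 h and Igf2r runs from -0.38 at 4 h to 0.84 at 48 h.

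Among the docking proteins, Irs2 was read by 4 probes. On the brightest, the 3 arrays gave log2 ratios of -0.075, -0.13 and -0.17 at 2 h, and -0.87, -1.08 and -0.99 at 4 h. They gave -0.58, -0.69 and -0.66 at 24 h, and -0.25, -0.18 and -0.17 at 48 h. All 12 arrays lay below 0, the 4 h arrays were the lowest, and those of 4 and 24 h overlapped neither each other nor the other times. The mean at 4 h was -0.98 ± 0.11 (SD, n = 3), or 1.97-fold lower (standard error 0.045, adjusted p = 1.38e-09), and 0.901% of all tested probes had a larger change at that time. At 24 h it was -0.64 ± 0.058 (adjusted p = 4.76e-08) and at 48 h -0.20 ± 0.047 (adjusted p = 0.00185). At 2 h the mean of -0.13 ± 0.049 was not called (adjusted p = 0.0557), but it was with the slide as a block (adjusted p = 0.0398). Settings that kept this probe by itself left its direction against the reference as it was, while averaging the gene's 4 probes gave 0.073 at 2 h (not called, adjusted p = 0.49). The distance of this Irs2 probe depended on the centring: in order of time it was -1.35, -2.15, -1.72 and -1.34 with arrays centred on the median of all spots, where the 2 h value was called (adjusted p = 2.05e-10), and -0.79, -1.59, -1.29 and -0.89 relative to the median of the tested probes.

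The steps between time points followed the same course for this probe. Irs2 fell from 2 to 4 h with a difference of -0.85 on the log2 scale (95% interval -0.99 to -0.72, adjusted p = 9.45e-07). The difference was -0.79, -0.95 and -0.82 on slides 1, 2 and 3. Irs2 then rose by 0.34 from 4 to 24 h (adjusted p = 0.000808) and by 0.44 from 24 to 48 h (adjusted p = 0.000398). Averaging the 4 Irs2 probes ended both calls, at 0.11 (adjusted p = 0.425) and 0.20 (adjusted p = 0.232). The sizes within each slide were 0.29, 0.39 and 0.33 for the first rise and 0.32, 0.51 and 0.49 for the other. From 2 to 4 h, 1 of the 7 genes was called higher and 2 lower, where 15.4% of all genes were called (5.46% higher, 9.93% lower). The 1 called higher was Igfbp5, which passed the filter only through its forskolin channel. At 2 h that channel was well above background on 1 of 3 arrays. From 4 to 24 h, 3 were called higher and 0 lower, where 38.9% were called (21.1% higher, 17.8% lower), and from 24 to 48 h 2 higher and 0 lower, where 14.6% were called (7.92% higher, 6.66% lower). Under the alternatives other than averaging the gene's probes, the 2 to 4 h value of this Irs2 probe lay between -0.91 and -0.80, while the rise from 24 to 48 h lost its call when arrays were centred on the median of all spots (0.38, adjusted p = 0.272).

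The other 3 Irs2 probes, whose sequences are given above, showed smaller changes. A_44_P400393 gave means of 0.0215 ± 0.078, -0.20 ± 0.072, -0.16 ± 0.082 and -0.0125 ± 0.061 at 2, 4, 24 and 48 h, and was called lower at 4 h (adjusted p = 0.00238) and 24 h (adjusted p = 0.00997). A_44_P503503 gave 0.015 ± 0.095, -0.28 ± 0.24, -0.22 ± 0.17 and -0.22 ± 0.16 and was called lower at 4 h (adjusted p = 0.0141), 24 h (adjusted p = 0.0434) and 48 h (adjusted p = 0.0394). These 2 probes were thus lower at 4 and 24 h like the brightest, but by a fraction of its size. A_44_P257518 gave 0.38 ± 0.49, -0.19 ± 0.39, -0.18 ± 0.34 and 0.031 ± 0.45 and was called at no time. On that probe the arrays of slide 1 were the lowest at every time, at -0.18, -0.59, -0.56 and -0.48, while those of slides 2 and 3 ran from -0.16 to 0.70. A fit with a slide term called it higher at 2 h (adjusted p = 0.000567) and lower at 4 h (adjusted p = 0.0185) and 24 h (adjusted p = 0.0233).

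Between 2 and 4 h, all 4 Irs2 probes had a difference below 0 on each of the 3 slides. A_44_P400393 fell, with a difference of -0.23 (adjusted p = 0.0343) that was -0.22, -0.23 and -0.23 within the slides. For A_44_P503503 it was -0.29, not called without the block (adjusted p = 0.125) and called with it (adjusted p = 0.006). For A_44_P257518 it was -0.57, likewise not called without the block (adjusted p = 0.195) and called with it (adjusted p = 0.000575). Calls of the dimmer probes rest on few arrays and on the processing. The 48 h call of A_44_P503503 was lost with no background correction (-0.16), an offset of 0 (-0.35), processed signals (-0.32), no filter (-0.22) and the authors' deposited values (-0.27), at adjusted p of 0.0506 to 0.112, and its 24 h call with an offset of 0 (-0.35, adjusted p = 0.0793) and no filter (adjusted p = 0.0558). The 24 h call of A_44_P503503 was also lost without 2 h replicates 2 or 3, 24 h replicate 3 or 48 h replicate 3 (adjusted p 0.0513 to 0.0687), and its 48 h call without 48 h replicate 3 (adjusted p = 0.117). Without the first replicate of the time point, A_44_P503503 stood at -0.14 (adjusted p = 0.197) at 4 h, -0.12 (adjusted p = 0.338) at 24 h and -0.14 (adjusted p = 0.252) at 48 h, and A_44_P400393 at -0.12 (adjusted p = 0.103) at 24 h. Leaving out 2 h replicates 1 or 2 or any 4 h array other than replicate 2 ended the 2 to 4 h call of A_44_P400393 (adjusted p 0.0575 to 0.13, differences -0.24 to -0.18). No filter ended it too (adjusted p = 0.0881). So did centring on all spots (-0.18, adjusted p = 0.652) or on the tested probes (-0.17, adjusted p = 0.314). Relative to the median of the tested probes, A_44_P400393 turned to 0.12 at 4 h and 0.072 at 24 h. Averaging the 4 probes gave -0.41 at 4 h (adjusted p = 0.000311) and -0.30 at 24 h (adjusted p = 0.00302), while the 48 h value of -0.10 was no longer called (adjusted p = 0.252).

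**Figure D2:**
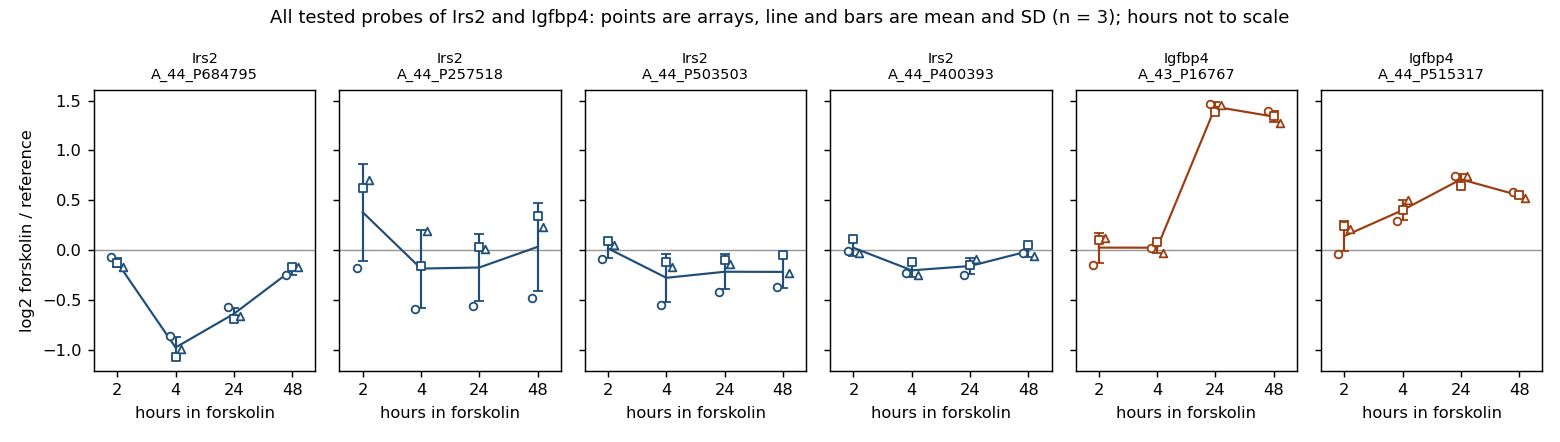
Log2 ratio of forskolin over reference (vertical axis) at 2, 4, 24 and 48 h (horizontal axis, not to scale) for the 4 tested probes of Irs2 and the 2 of Igfbp4. Points are arrays, with circles, squares and triangles for slides 1, 2 and 3, and lines and bars are means and SD of 3 arrays; the dip of Irs2 at 4 h is -0.98 on the brightest probe and -0.28 to -0.19 on the others, and Igfbp4 at 24 h reads 1.44 on one probe and 0.71 on the other.

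Of the receptors, Igf1r, the tyrosine kinase through which IGF1 acts, was slightly higher at all 4 times with loess and lower at all 4 with arrays centred on the median of all spots. Its probe, spotted 10 times, gave 0.21, 0.28 and 0.41 at 2 h, 0.22, 0.25 and 0.28 at 4 h, 0.11, 0.16 and 0.13 at 24 h, and 0.26, 0.24 and 0.20 at 48 h. All 12 arrays lay above 0, and the ranges of 2, 4 and 48 h overlapped. The means were 0.30 ± 0.10, 0.25 ± 0.03, 0.13 ± 0.023 and 0.23 ± 0.034 (SD, n = 3), or at most 1.23-fold, with adjusted p of 0.000241, 0.000246, 0.0158 and 0.000309. The 24 h call was lost without 24 h replicate 2 (0.12, adjusted p = 0.0821) or 3 (0.13, adjusted p = 0.0627). No step between successive times was called: -0.05 from 2 to 4 h (95% interval -0.18 to 0.079), -0.11 from 4 to 24 h (-0.24 to 0.0145) and 0.099 from 24 to 48 h (-0.03 to 0.23). With arrays centred on the median of all spots all 4 means turned below 0, from -0.27 to -0.18, while relative to the median of the tested probes they were above it, at 0.37, 0.30, 0.17 and 0.26.

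Igf2r, the lysosomal receptor that clears IGF2, changed in both directions. Its probe at chr1:42343711-42343770 gave -0.044, 0.010 and 0.023 at 2 h, -0.36, -0.40 and -0.37 at 4 h, 0.13, 0.13 and 0.058 at 24 h, and 0.57, 0.96 and 0.99 at 48 h. No 2 time points overlapped, with 4 h lowest and 48 h highest. The mean at 4 h was -0.38 ± 0.022 (SD, n = 3), or 1.30-fold lower (adjusted p = 0.000214), and at 48 h it was 0.84 ± 0.23, or 1.79-fold higher (adjusted p = 5.91e-08). The values at 2 h (-0.0035) and 24 h (0.11, adjusted p = 0.179) were not called, though the 24 h value was called without 48 h replicate 1 (adjusted p = 0.0243) and turned to -0.62 with arrays centred on the median of all spots and to -0.18 relative to the median of the tested probes. Replicate 1 was the lowest of the 48 h arrays, and without it the 48 h mean was 0.97. With arrays centred on the median of all spots the 48 h value was 0.018 and not called (adjusted p = 0.889), and relative to the median of the tested probes it was 0.47.

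Each step of Igf2r between successive times was called. It fell between 2 and 4 h with a difference of -0.38 (95% interval -0.57 to -0.18, adjusted p = 0.0121), rose by 0.48 to 24 h (0.29 to 0.68, adjusted p = 0.00064) and rose by a further 0.73 to 48 h (0.54 to 0.93, adjusted p = 9.27e-05). Within slides 1, 2 and 3 the last rise was 0.44, 0.83 and 0.93, so its size varied between slides while its direction did not. Of all tested probes, 0.544% changed more from 24 to 48 h. Under the other settings that rise lay between 0.64 and 0.87, and the fall from 2 to 4 h lost its call under median centring (-0.36, adjusted p = 0.401).

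**Figure D3:**
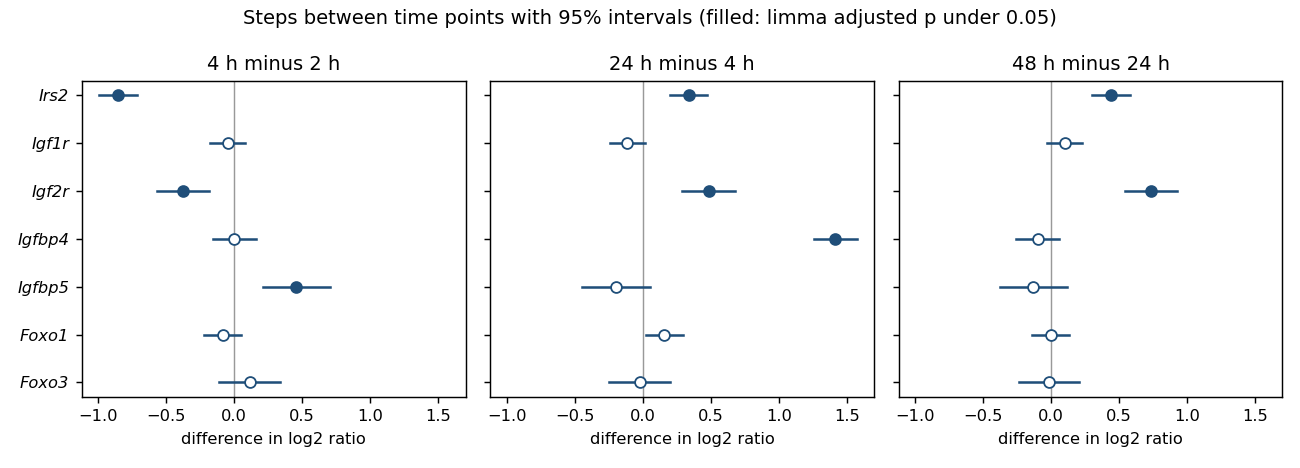
Difference in log2 ratio (horizontal axes) between successive time points for the brightest probe of each of the 7 genes (vertical axis). Points are fitted differences over 3 arrays against 3, lines are 95% intervals and filled points were called. Irs2 and Igf2r are called in all 3 steps, Igfbp4 only from 4 to 24 h and Igfbp5 only from 2 to 4 h. The 2 h level of Igfbp5 is not well measured, so its interval from 2 to 4 h is a description only.

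Igfbp4 changed between 4 and 24 h. On its brightest probe the arrays gave -0.15, 0.10 and 0.12 at 2 h and 0.020, 0.081 and -0.034 at 4 h. They gave 1.47, 1.39 and 1.46 at 24 h and 1.39, 1.34 and 1.28 at 48 h. The early arrays lay around 0, the late ones all above the early ones, and the 24 and 48 h ranges overlapped slightly. The mean was 1.44 ± 0.044 (SD, n = 3) at 24 h, or 2.71-fold (adjusted p = 6.79e-11), and 1.34 ± 0.058 at 48 h, or 2.53-fold (adjusted p = 6.66e-11). Of all tested probes, 0.377% had a larger change at 24 h. The rise from 4 to 24 h was 1.42 (95% interval 1.26 to 1.57, adjusted p = 4.51e-09), at 1.45, 1.31 and 1.49 within the slides, and no step was called before (-0.0011) or after it (-0.099, 95% interval -0.26 to 0.058).

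The step of Igfbp4 on its brightest probe held across settings while its distance from the reference did not. From 4 to 24 h it was 1.27 to 1.44 under the alternatives that kept the probe by itself, and 0.86 when both Igfbp4 probes were averaged. Against the reference, centring on the median of all spots gave -1.39, -1.31, 0.082 and -0.056 at 2, 4, 24 and 48 h, so that the late rise was not called there and turned at 48 h. Relative to the median of the tested probes the values were -0.83, -0.76, 0.52 and 0.40, with calls in opposite directions early and late. No spot of this bright probe was saturated.

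The dimmer Igfbp4 probe, shown above, was higher from 4 h on, with smaller values late. Its arrays gave -0.036, 0.24 and 0.21 at 2 h, 0.295, 0.41 and 0.50 at 4 h, 0.74, 0.64 and 0.74 at 24 h, and 0.58, 0.55 and 0.52 at 48 h. The 24 h arrays were the highest and overlapped no other time. The means were 0.14 ± 0.15 (not called, adjusted p = 0.0744), 0.40 ± 0.10 (adjusted p = 3.75e-05), 0.71 ± 0.057 (adjusted p = 1.12e-07) and 0.55 ± 0.029 (adjusted p = 1.07e-06). Its 4 h mean turned to -0.036 when arrays were centred on the median of all spots. The call of the 2 to 4 h rise of 0.26 (adjusted p = 0.037) was lost without any 1 of 5 arrays: 2 h replicate 1 (0.17, adjusted p = 0.15), 4 h replicates 2 (0.26, adjusted p = 0.0962) and 3 (0.21, adjusted p = 0.154), 24 h replicate 3 (adjusted p = 0.0511) and 48 h replicate 2 (adjusted p = 0.0514). Processed signals (0.51, adjusted p = 0.0576) and no filter (adjusted p = 0.0773) ended it too. So did centring on all spots (0.20, adjusted p = 0.686) or on the tested probes (0.21, adjusted p = 0.151). The dimmer probe rose by 0.31 from 4 to 24 h (adjusted p = 0.00568). That call was lost with arrays centred on the median of all spots (0.30, adjusted p = 0.108) or of the tested probes (0.17, adjusted p = 0.113). Both Igfbp4 probes were called higher at 24 and 48 h, and at 4 h the dimmer one alone was. The difference between the probes was not tested.

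Igfbp5, a binding protein that sticks to extracellular matrix, was read from a low level. Its tested probe, at chr9:72147294-72147353 on the minus strand, was well above background in the forskolin channel on 10 of 12 arrays and in the reference channel on none, so a fold is a lower bound. It passed the filter only through the forskolin channel, where it is high, so that it lay above the reference was partly fixed by the filter and is given as a description. The arrays gave 0.20, 0.17 and 0.069 at 2 h, 0.77, 0.57 and 0.46 at 4 h, 0.61, 0.33 and 0.27 at 24 h, and 0.50, 0.27 and 0.055 at 48 h. The 4 h arrays were high and overlapped those of 24 and 48 h, only the 48 h arrays reached down into the 2 h range, and slide 1 was the highest at every time. The fold was at least 1.52 at 4 h (mean 0.60 ± 0.16), at least 1.29-fold at 24 h (0.40 ± 0.18) and at least 1.21-fold at 48 h (0.27 ± 0.22). Igfbp5 was called higher at these times, calls that the filter partly fixed. The bound sets the mean of the forskolin arrays against, per array, the higher of the reference spot and the dimmest signal well above background.

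The fitted difference of Igfbp5 between 2 and 4 h was 0.46 (adjusted p = 0.0163), at 0.58, 0.40 and 0.39 within the slides. At 2 h its forskolin channel was well above background on 1 of 3 arrays, so that level is not well measured. The interval drawn for this step is a description only. The call was lost with processed signals (1.73, adjusted p = 0.0673) and with centring on all spots (0.25, adjusted p = 0.556) or on the tested probes (0.26, adjusted p = 0.342), and without 2 h replicate 3 (0.42, adjusted p = 0.061) or 4 h replicate 1 (0.37, adjusted p = 0.071), and the 48 h call was lost without 48 h replicate 1 (0.16, adjusted p = 0.141). With the slide as a block the 2 h value of 0.14 was also called higher, a call that the filter partly fixed in the same way. The block also called a difference of -0.20 from 4 to 24 h (adjusted p = 0.0238). As the reference spots lay at background, the size depended on the background correction: the 4 h value was 1.46 with an offset of 0 and 3.04 from the scanner's processed signals. The second Igfbp5 probe, 3347 bases away by its start, was not tested.

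Foxo1, one of the transcription factors that AKT holds out of the nucleus, was slightly lower at all 4 times. The arrays gave -0.25, -0.18 and -0.21 at 2 h, -0.24, -0.25 and -0.405 at 4 h, -0.13, -0.14 and -0.14 at 24 h, and -0.20, -0.18 and -0.038 at 48 h. All 12 arrays lay below 0, and the 24 h arrays overlapped neither those of 2 h nor those of 4 h. The means were -0.21 ± 0.032, -0.30 ± 0.093, -0.14 ± 0.0049 and -0.14 ± 0.089 (SD, n = 3), with adjusted p of 0.00352, 8.32e-05, 0.0189 and 0.0156, and the direction held under every setting tried. Its size did not: in order of time, Foxo1 was at -0.74, -0.85, -0.58 and -0.60 with arrays centred on the median of all spots and at -0.19, -0.30, -0.145 and -0.15 relative to the median of the tested probes. With loess the 4 h mean was 1.23-fold lower. No step of Foxo1 between successive times was called: -0.086 from 2 to 4 h, 0.16 from 4 to 24 h (adjusted p = 0.0605) and -0.0025 from 24 to 48 h. The step from 4 to 24 h was called with the stricter filter (adjusted p = 0.0458) and without 48 h replicate 3 (adjusted p = 0.0435). The 24 h call was lost without any 1 of the 24 h arrays (-0.14 to -0.13, adjusted p 0.0624 to 0.0762), and the 48 h call without 48 h replicate 1 (-0.11) or 2 (-0.12), both at an adjusted p of 0.102. Processed signals ended the 2 h call (-0.24, adjusted p = 0.113).

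Foxo3, the other FoxO factor, was not called at any time. Its probe was dim: it was well above background on 3 of 12 arrays in the forskolin channel and on 7 in the reference channel. It passed the filter only through the reference channel at 2 h, so its ratios lie near background. The means were -0.03 ± 0.097, 0.083 ± 0.045, 0.061 ± 0.19 and 0.047 ± 0.19 (SD, n = 3), and the 95% interval at 4 h ran from -0.074 to 0.24. Relative to the median of the tested probes Foxo3 was called higher at all 4 times, from 0.49 at 2 h, where the direction turned, to 0.68 at 4 h.

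The late pair of time points was also set against the early pair. Igfbp4 rose with a difference of 1.37 (95% interval 1.25 to 1.48, adjusted p = 7.23e-11) and Igf2r with 0.66 (0.53 to 0.80, adjusted p = 7.79e-07). Irs2 on its brightest probe was higher by 0.13 (0.034 to 0.23, adjusted p = 0.0263) and Foxo1 by 0.12 (0.02 to 0.21, adjusted p = 0.0437). Both thus lay nearer the reference in the mean of the late pair than in that of the early pair. For Irs2 this came with the low 4 h value (-0.98), as its 2 h mean (-0.13) lay nearer the reference than those of 24 h (-0.64) and 48 h (-0.20). So 4 of the 7 genes were called higher late and 0 lower, where 50.6% of all genes were called (26.3% higher, 24.3% lower). The calls for Irs2 and Foxo1 are marginal. For Irs2 it was lost without 2 h replicate 3, 4 h replicates 2 or 3, 24 h replicate 1 or 48 h replicates 2 or 3 (adjusted p 0.0516 to 0.0729, differences 0.11 to 0.13), and the mean of its 4 probes turned to -0.03. An offset of 0, no filter and either centring also ended the Irs2 call (adjusted p 0.051 to 0.215). For Foxo1 it was lost without any 2 h array, 4 h replicate 3, any 24 h array or 48 h replicate 3 (adjusted p 0.0536 to 0.118, differences 0.089 to 0.12). No background correction, an offset of 0, processed signals, no filter and either centring also ended the Foxo1 call (adjusted p 0.0616 to 0.518).

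As a check of the labelled cells, 12 of 14 markers of neurons and sensory neurons could be tested, and 10 of them were called higher and 1 lower at 48 h, where 27% of all genes were higher and 30.4% lower, and at 4 h 3 were higher and 5 lower. Those higher at 48 h included Snap25 (1.47 ± 0.29), a protein of synaptic vesicle release, and Scn9a (1.05 ± 0.15), a sensory neuron sodium channel. Calca, the gene of the sensory neuropeptide CGRP, was lower at all 4 times (-0.15, -0.21, -0.18 and -0.13), and Stmn2, a neuronal microtubule regulator, was lower at 2, 4 and 24 h (-0.16, -0.24 and -0.33) and higher at 48 h (0.47). In the forskolin channel Pou4f1 was well above background on 3 arrays and Trpv1 on none. The summed forskolin-channel intensity of the 12 markers ranged from 91656 to 101210 on the 2 h arrays and from 82165 to 89168 on those of 4 h. It ranged from 131460 to 151130 for 24 h and from 173860 to 176690 for 48 h. The sum thus fell and then rose in the same steps as Igf2r, but it is weighted to the brightest markers, and single markers did not all share its course. The 3 called higher at 4 h were Nefl (1.76), Uchl1 (0.42) and Isl1 (0.35), while the 5 called lower ran from -0.48 (Elavl4) to -0.21 (Calca). At 24 h Nefl was at 0.16 (not called) and Isl1 was lower (-0.52), where 6 markers were higher and 3 lower. The brightest Igfbp4 probe went with the sum from 4 to 24 h only, with no call from 2 to 4 h (-0.0011) or from 24 to 48 h (-0.099). The part of the sum in these changes was not tested. Of 8 fibroblast and matrix markers 4 could be tested, and their sum was 3100 to 3384 at 2 h and 3730 to 4279 at 48 h, while Dcn, Lum, Postn and Col3a1 were above background on no array in the forskolin channel. Of 9 glial markers 2 could be tested, with a sum of 207 to 227 at 2 h and 224 to 234 at 48 h, and S100b, Gfap, Cdh19 and Aqp4 were above background on none. Of 10 leukocyte and endothelial markers 7 could be tested, with a sum of 680 to 691 at 2 h and 835 to 860 at 48 h, and Vwf was the only one called higher at 48 h. All these sums include the offset of 50 that the background correction adds to each spot, so the low sums hold background as well as signal. In these bulk samples, fewer cells of a type and less RNA per cell cannot be told apart.

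Of 83 further genes of the pathway, 76 were on the array and 56 could be tested. At 2 h, 11 were called higher and 9 lower, where 9.95% of all genes were higher and 18.3% lower. At 4 h the counts were 15 and 13 (all genes 19.6% and 30.3%), at 24 h 18 and 17 (24.2% and 29.2%), and at 48 h 19 and 13 (27% and 30.4%). The calls thus went both ways in the pathway at every time. Ins2, Txnip and Rptor passed the filter only through the reference channel and Grb10 only through the forskolin channel. Their calls were thus partly fixed by the filter. The median of the 56 genes was 0.035, -0.0092, 0.047 and -0.040 at 2, 4, 24 and 48 h.

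Among ligands and circulating partners, 5 of 5 genes could be tested, with 3 lower and none higher at 24 h (list median -0.13) and 3 lower and 1 higher at 48 h (-0.14). Of all genes, 24.2% were higher and 29.2% lower at 24 h, and 27% higher and 30.4% lower at 48 h. The 3 lower genes included Ins2 at both times, calls that were partly fixed by the filter. Igf2, a fetal growth factor, was lowest at 24 h (-0.44 ± 0.092, adjusted p = 1.18e-06). Ins1 was at -0.26 ± 0.049 at 4 h, turning to 0.039 relative to the median of the tested probes. Ins2 was at -0.16 ± 0.11 at 48 h with its forskolin channel above background on 1 of 12 arrays, so that it passed the filter only through the reference channel, turned to 0.27 on the same scale, and lost its call without 48 h replicates 1 (-0.12) or 2 (-0.14). Igf1 was higher at 2 h (0.23 ± 0.12, adjusted p = 0.00813), a call lost without 2 h replicates 1 (0.17) or 2 (0.22). Of the other binding proteins and their proteases 2 of 7 could be tested, with 1 higher and 1 lower at 48 h (list median 0.55). Igfbp6, a binding protein with a preference for IGF2, was higher at 48 h (1.30 ± 0.098, adjusted p = 3.08e-11), and Igfbp1 was lower, most at 24 h (-0.23 ± 0.047). Igfbp3 was above background on no array.

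Of 12 other receptors and adaptors 6 could be tested, with 2 higher and 1 lower at 24 h (list median 0.072). Of all genes, 24.2% were higher and 29.2% lower at 24 h. Sos1, a Ras exchange factor, was lower at 24 h (-0.28 ± 0.07). The adaptors Sh2b1 (0.33 ± 0.14 at 24 h) and Grb2 (0.28 ± 0.19 at 4 h) were higher but turned below 0 when arrays were centred on the median of all spots, to -0.13 and -0.61, Grb2 also relative to the median of the tested probes (-0.052). The Grb2 call was lost without 4 h replicate 1 (0.18). Of 15 genes of PI 3-kinase and Akt 11 could be tested, with 4 higher and 1 lower at 4 h (list median 0.079) and 2 higher and 4 lower at 24 h (0.07). Of all genes, 19.6% were higher and 30.3% lower at 4 h. Sgk1, a kinase related to AKT, was at 2.19 ± 0.12 at 2 h (adjusted p = 2.14e-12) and 1.25 at 4 h, lower at 24 h (-0.20, adjusted p = 0.00318) and not called at 48 h (-0.040). Pik3r2, a regulatory subunit of PI 3-kinase, was at 0.64 ± 0.038 at 48 h, Akt1 at 0.38 ± 0.051 at 24 h and Akt2 at 0.15 ± 0.062 at 4 h, and these 3 turned to -0.27, -0.21 and -0.14 when arrays were centred on the median of all spots. The Akt2 call was lost without any 1 of the 4 h arrays (0.11 to 0.17). Foxo4 was lower at 4 h (-0.13 ± 0.039, adjusted p = 0.0102), Pik3r1 was above background on no array, and Foxo6 had no probe.

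Of 12 genes of the mTOR branch 9 could be tested, with 2 higher and 4 lower at 48 h (list median -0.049). Of all genes, 27% were higher and 30.4% lower at 48 h. Eif4e, the cap-binding initiation factor, was lower at 48 h (-0.54 ± 0.073, adjusted p = 2.64e-07), and Rps6, a ribosomal protein and the substrate of S6 kinase, was lower at 4 h (-0.54 ± 0.10). Tsc2, a brake on mTOR, was higher at 24 h (0.46 ± 0.12), turning to -0.40 when arrays were centred on the median of all spots. Of 12 attenuators of the pathway 10 could be tested, with 2 higher and none lower at 2 h (list median 0.0049), 2 and 3 at 4 h (-0.022), 5 and 1 at 24 h (0.14) and 4 and none at 48 h (0.0037), where 24.2% of all genes were higher at 24 h and 27% at 48 h. Pik3ip1, an inhibitor of PI 3-kinase, was at 1.03 ± 0.14 at 48 h (adjusted p = 1.29e-08). Grb10, an adaptor that dampens insulin and IGF1 receptors, had its forskolin channel well above background on 6 of 12 arrays and its reference channel on 1; it passed the filter only through the forskolin channel, so that its 3 calls as higher, at 2, 4 and 24 h, were partly fixed by the filter and no size is given. Trib3, which binds AKT, was lower at 4 h (-0.36, adjusted p = 1.67e-06), not called at 48 h (0.051) and at 0.60 ± 0.0115 at 24 h, where it turned to -0.67 with centring on all spots and -0.23 relative to the median of the tested probes.

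Of 20 genes listed as FoxO targets 13 could be tested, with 3 higher and 3 lower at 2 h (list median 0.049), 4 and 3 at 4 h (-0.017), 6 and 4 at 24 h (0.0455) and 8 and 2 at 48 h (0.24). Of all genes, 9.95%, 19.6%, 24.2% and 27% were higher in order of time, and 18.3%, 30.3%, 29.2% and 30.4% lower. Txnip was well above background on 2 of 12 arrays in the forskolin channel and on 11 in the reference channel. It passed the filter only through the reference channel, so its calls as lower at 2, 4 and 24 h were partly fixed by the filter. Other pathways also act on the genes of this list. Cited2, a transcriptional co-regulator, was at 1.36 ± 0.14 at 2 h (adjusted p = 1.79e-09). Klf9, a zinc finger factor, was, with loess, higher at 2 h (0.35, adjusted p = 0.000518) and lower at 4 h (-0.81 ± 0.052, adjusted p = 5.17e-08), 24 h (-0.31) and 48 h (-0.17). Gadd45a, a stress and growth arrest gene, was at 0.80 ± 0.18 at 24 h, turning to -0.11 when arrays were centred on the median of all spots. These changes thus fell at different times and in both directions.

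**Figure D4:**
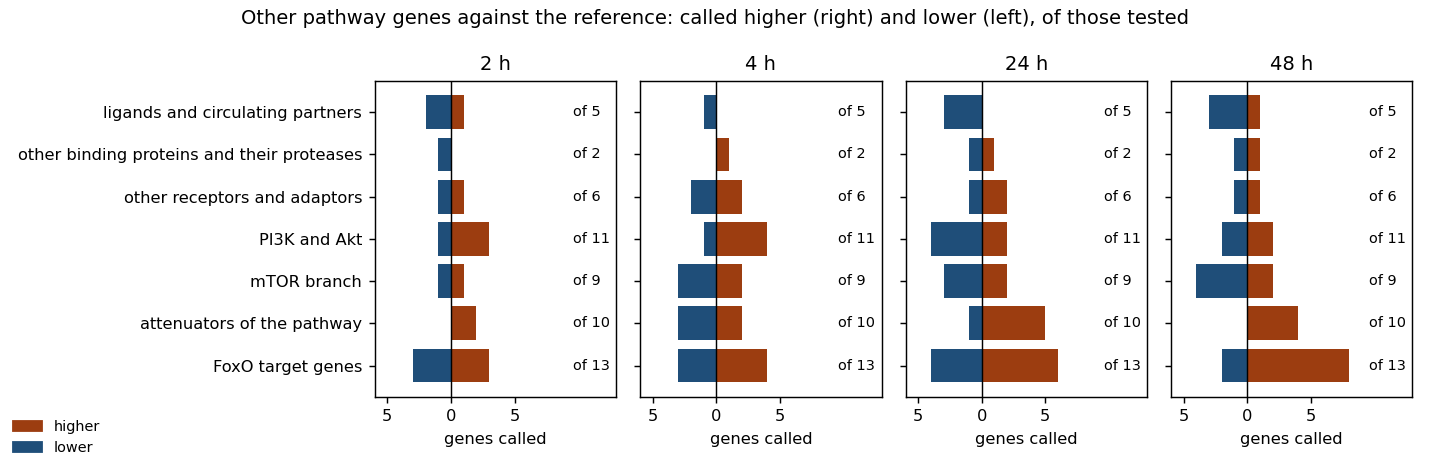
Number of genes called higher (to the right) and lower (to the left) against the reference (horizontal axes) in each of 7 lists of other pathway genes (vertical axis) at 2, 4, 24 and 48 h, with the number tested at the right of each panel. The FoxO target list has 8 of 13 genes higher at 48 h, where 27% of all genes were higher. The attenuators have 5 of 10 higher at 24 h, where 24.2% of all genes were higher, and the 5 include Grb10. Calls of Grb10, Ins2, Txnip and Rptor were partly fixed by the filter.

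The genes whose log2 ratios over the 12 arrays were most alike to Igfbp4, Irs2 and Igf2r, the 3 members with the largest mean against the reference by loess with an offset of 50, were looked up among 2222 genes with a symbol and a mean of at least 0.5 in size at some time. The points share the reference, and 3 arrays share a time point, so Pearson's r describes the likeness of the time course only. For Igfbp4 they included Angptl6 (r = 0.992) and Aprt (r = 0.991). For Irs2 they were Myt1l (r = 0.978), Lasp1 (r = 0.966) and Zfhx4 (r = 0.960), and Myt1l had means of 0.045, -1.10, -0.50 and -0.0081 at 2, 4, 24 and 48 h. For Igf2r they were Zmat3 (r = 0.989), Arhgef15 (r = 0.977) and Itga1 (r = 0.975).

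Forskolin acts through cyclic AMP, whose factor CREB binds the element TGACGTCA or the shorter TGACG, and FoxO factors bind GTAAACA. These letters were searched on both strands in the 250 bases before the RefSeq start (GRCr8) of 8 of the 10 genes; Irs2 and Foxo3 were not searched. The 2 windows shown are those of Igf2r and Igfbp4, both called higher late than early, with TGACG in capitals on either strand. The Igf2r window is chr1:50526628-50526877 and that of Igfbp4 chr10:84491221-84491470, both on the plus strand.
Igf2r: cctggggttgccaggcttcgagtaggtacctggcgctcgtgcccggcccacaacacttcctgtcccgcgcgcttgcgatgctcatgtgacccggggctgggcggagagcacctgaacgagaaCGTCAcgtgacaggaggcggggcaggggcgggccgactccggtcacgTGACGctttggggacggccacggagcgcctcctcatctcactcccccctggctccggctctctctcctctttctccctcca
Igfbp4: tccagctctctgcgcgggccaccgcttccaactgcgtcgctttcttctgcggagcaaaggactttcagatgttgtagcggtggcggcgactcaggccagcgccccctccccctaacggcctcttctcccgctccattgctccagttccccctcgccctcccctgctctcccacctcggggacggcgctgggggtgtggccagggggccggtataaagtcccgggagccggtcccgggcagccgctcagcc
The Igf2r window held TGACG at 2 places, 128 bases before the start on the minus strand and 81 before it on the plus strand, and Insr held it at 1; 18.2% of 33469 such windows hold it. TGACGTCA, which contains TGACG, was in none of the 8 windows and is in 1.59% of all, and GTAAACA was in that of Insr alone and is in 3.21% of all. The Igfbp4 window held none of the 3 sequences, which says only that these letters are not in those bases. A match is a description and not a binding site.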

How the data were processed

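Total RNA of F11 cells was extracted with Trizol and labelled with Agilent's kits, per the labels' protocols. Green and red intensities were read from 12 two-colour arrays with Feature Extraction 9.5.1.1 as deposited, per the file headers. The authors' deposited log2 values are red over green; limma is named in the submitters' processing notes, with no version. Those values correlated with the scanner's red over green at 0.909 or more on every array once their identifiers were read as spot order, and served as an alternative.

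Here limma 3.58.1 (R 4.3.3) corrected the background by normexp (offset 50), normalized each array by loess without control spots and turned the ratio to forskolin over reference. Outlier spots were dropped, and repeated spots were averaged. Testing required that, for some time point, 1 channel was well above background on each of its 3 arrays. A fit over the 12 arrays (8 residual degrees of freedom) gave two-sided moderated tests with Benjamini-Hochberg adjustment over 20418 probes; genes were read by their brightest probe, and the fit was tested on simulated data. The number of arrays limits the precision.

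The members, lists and comparisons were chosen with earlier results of these data known. Named pathway genes were up to 3 per list with the largest called change on one side of 0 in all 3 arrays, and always Igf1, Igf2, Ins1, Ins2, Igfbp3, Igfbp6, Akt1, Akt2, Sgk1, Pik3r1, Foxo4 and Foxo6. Some genes that the rule names are not reported here. The marker genes named were chosen after their values were seen. Replicate numbers mark slides. Of the 18 pairs of same-numbered arrays, 14 deviated together at a correlation over 0.1 (range 0.0577 to 0.483), so the block was kept as an alternative. The alternatives were other background corrections, centrings, filters and probe averages, the authors' values, the slide as a block, and leaving out each array in turn.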

Additional observations from a re-analysis of the deposited data

Results flagged for a closer look

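The late time points (24 and 48 h) differed from the early ones (2 and 4 h) for 4 of the 7 genes tested, by limma's test of that difference. Igfbp4 was higher late with a difference of 1.37 on the log2 scale, and Igf2r with 0.66. Irs2 on its brightest probe was higher late by 0.13 and Foxo1 by 0.12, both still below the reference at 24 and 48 h. For Irs2 this holds for the means of the pairs, as its 2 h mean (-0.13) lay above those of 24 h (-0.64) and 48 h (-0.20). For comparison, 50.6% of all genes passed the same test. The calls of Irs2 and Foxo1 were marginal, as each was lost under several processing settings and without single arrays.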

How the results depend on the processing

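The early to late steps of Igf2r and of Igfbp4 on its brightest probe kept direction and call under every alternative that tested the probe. So did the 4 h values of Irs2 on its brightest probe, of Igf2r and of Foxo1. Distances from the reference depended most on centring, for which the cause was not tested. With arrays centred on the median of all spots, the calls numbered 15685 at 2 h and 15833 at 4 h (5661 and 10073 with loess), 383 from 2 to 4 h (3037), 3701 from 4 to 24 h (7852), 295 from 24 to 48 h (2860) and 5855 for late against early (10265). Directions that turned there were, for Irs2, A_44_P257518 at 2 h (-0.53) and 48 h (-0.76) and, at 2 h, A_44_P503503 (-0.48) and A_44_P400393 (-0.26). Igf1r turned at every time (-0.18, -0.26, -0.27 and -0.20), Igf2r at 24 h (-0.62), the bright Igfbp4 probe at 2, 4 and 48 h (-1.39, -1.31 and -0.056) and the dim one at 2 and 4 h (-0.24 and -0.036). So did Sh2b1 (-0.13), Grb2 (-0.61), Pik3r2 (-0.27), Akt1 (-0.21), Akt2 (-0.14), Tsc2 (-0.40), Trib3 (-0.67) and Gadd45a (-0.11). Centring on the tested probes, added after seeing the data, gave 16827 calls at 2 h, 16930 at 4 h and 16244 at 24 h (10691 with loess), 1337 from 2 to 4 h and 1377 from 24 to 48 h. It turned A_44_P400393 of Irs2 at 4, 24 and 48 h (0.12, 0.072 and 0.23), Igf2r at 24 h (-0.18), the bright Igfbp4 probe at 2 and 4 h (-0.83 and -0.76), Foxo3 at 2 h (0.49), Ins1 (0.039), Ins2 (0.27), Grb2 (-0.052) and Trib3 (-0.23). Averaging the probes of Irs2 turned its 2 h value to 0.073 and its late against early difference to -0.03. Leaving out 1 array gave 3047 to 6202 calls at 2 h and 1979 to 3417 from 2 to 4 h; the lowest came without 2 h replicate 3 and without 4 h replicate 3, and 3516 were called at 2 h without replicate 2. With the replicate number, that is the slide, as a block, the calls against the reference numbered 6998, 11107, 11699 and 12459 in order of time, and the block changed no call of a member other than the 9 it added for Irs2 and Igfbp5. Depth on these arrays is signal over background, and it left Irs1, Insr and Igfbp2 without a direction.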
